A study of Mus musculus with 4 samples.

Results

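Dendritic cells, monocytes, macrophages and neutrophils of the tumour were compared for 9 transcription factors that direct their development: Zbtb46, Irf8, Irf4, Batf3, Tcf4, Runx2, Spi1, Cebpb and Cebpe. The 9 genes were taken by symbol from the 55450 genes of a single-cell RNA matrix. Their UMIs (unique molecular identifiers, each standing for 1 captured RNA molecule) were summed over cells that were gated one by one on surface, chemokine and enzyme genes. None of the 9 factors was a gate marker, so their levels did not set the gates.

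The cells came from flank tumours of 4T1, a mouse mammary carcinoma line, in female BALB/c mice of 6 to 8 weeks that received 1000000 tumour cells each. After an intravenous injection on day 7, all mice were exposed to near-infrared (NIR) light of 980 nm at 1.0 W per square centimetre in 5 min exposures (day 8, day 9 and day 10), and tumours were collected on day 13 and sorted for CD45, the pan-leukocyte antigen. Of the 4 samples, 2 had received PBS and then NIR (replicates LC-2 and LC-5) and 1 had received TIOs and then NIR (LC-6). The TIOs are liquid nitrogen-treated macrophages of a cultured line loaded with upconverting nanoparticles that carry RSL3, Ce6 and azobenzene, so the carriers are themselves of macrophage origin, and their RNA was not told apart from that of the host here. The sample titled PBS was left unassigned, because its treatment line names TIOs. The matrix marks 4 libraries by a barcode suffix but does not tie a suffix to a sample, so treatments could not be compared and the libraries are called 1 to 4, each of unknown treatment. The data therefore count as 1 pooled sample, no test between groups was possible, and no p-value is given.

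The matrix held 33064 barcodes and 355765099 UMIs. With at least 300 genes and at most 15% mitochondrial UMIs per barcode, 32133 cells were kept, 6783 to 8889 per library, with a median of 5385 UMIs over all cells and of 2641.5 to 11698 within libraries. Of the barcodes, 95 recurred in more than 1 library. Levels are given as CPM, the summed UMIs of a gene scaled to a total of 1e+06 for the gated cells. Brackets hold 95% intervals (exact Poisson for levels, exact Clopper-Pearson for shares, exact conditional for ratios), and these cover counting error only. A library value is given where the library held at least 20 cells of the gate. A CPM is a level relative to the other RNA of the cell, and the levels of different genes are not ranked against each other.

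The gates held 98 conventional type 1 dendritic cells (cDC1), 207 conventional type 2 dendritic cells (cDC2), 228 mature dendritic cells, 129 plasmacytoid dendritic cells (pDC), 3992 monocytes, 4165 macrophages and 9349 neutrophils. The gate names rest on their markers. Xcr1, the cDC1 chemokine receptor, was found in 81.6% of cDC1 and had no UMI in cDC2, and Cd209a, a cDC2 lectin, in 75.4% of cDC2 and in 3.06% of cDC1. Flt3 was found in 33.8% of cDC2, 83.7% of cDC1 and 2.58% of monocytes. Mrc1 was found in 62.3% of cDC2 and 49.5% of monocytes, and Ccr2 in 69.1% and 94.1%. Of the 207 cDC2, 57 held only the minimum of 3 markers. Whether monocyte-derived cells were among the cDC2 gate was not tested. Ccr7, the receptor that guides mature dendritic cells to lymph nodes, was found in 96.9% of the mature gate, and Siglech, a pDC lectin, in 100% of pDC. Ly6c2 marked 83.7% of monocytes and C1qa 74.0% of macrophages, while Ly6c2 was also present in 98.4% of pDC. S100a8 was found in 97.1% of neutrophils and in 52.7% to 80.6% of the other gates, at 122 to 367 CPM against 28774.7 CPM (free RNA in the droplets was not tested). Median depth ran from 1816 UMIs in neutrophils to 16200.5 in cDC1. Gates of tumour or epithelial cells, fibroblasts, pericytes and endothelial cells held 7152 cells, 22.3% of those kept, although the sort was for CD45, and 3276 of the 3462 tumour or epithelial cells lay in library 1. The dendritic gates were unevenly spread over libraries: library 3 held 188 of the 228 mature dendritic cells, and library 4 held 85 of the 129 pDC and 3031 of the 3992 monocytes.

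In the biology of these lineages, Spi1 encodes PU.1, an ETS factor that all myeloid cells require, and the C/EBP factors direct granulocyte and monocyte maturation. IRF8 is required for cDC1 and shapes pDC, IRF4 acts in cDC2 and in migrating dendritic cells, and BATF3 is the partner that keeps Irf8 transcribed in cDC1. ZBTB46 is carried by conventional dendritic cells and not by pDC or monocytes, and TCF4 (E2-2) with RUNX2 maintains the pDC programme.

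A dendritic cell gate held the highest pooled level of 7 of the 9 factors among the 7 gates. pDC led for Irf8, Tcf4 and Runx2, cDC1 for Batf3, cDC2 for Irf4 and Spi1, and mature dendritic cells for Zbtb46. Monocytes led for Cebpe and neutrophils for Cebpb. Over the 9267 genes with at least 500 UMIs in the 7 gates, 64.2% were highest in a dendritic gate, 22.8% in the monocyte or macrophage gate and 13% in the neutrophil gate. Of the 9 factors, 7 reached 500 UMIs there, and 5 of these 7 were led by a dendritic gate, so the share of factors led by dendritic cells lay close to that of all genes. Zbtb46 with 310 UMIs and Irf4 with 462 UMIs were below that number.

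**Figure D1:**
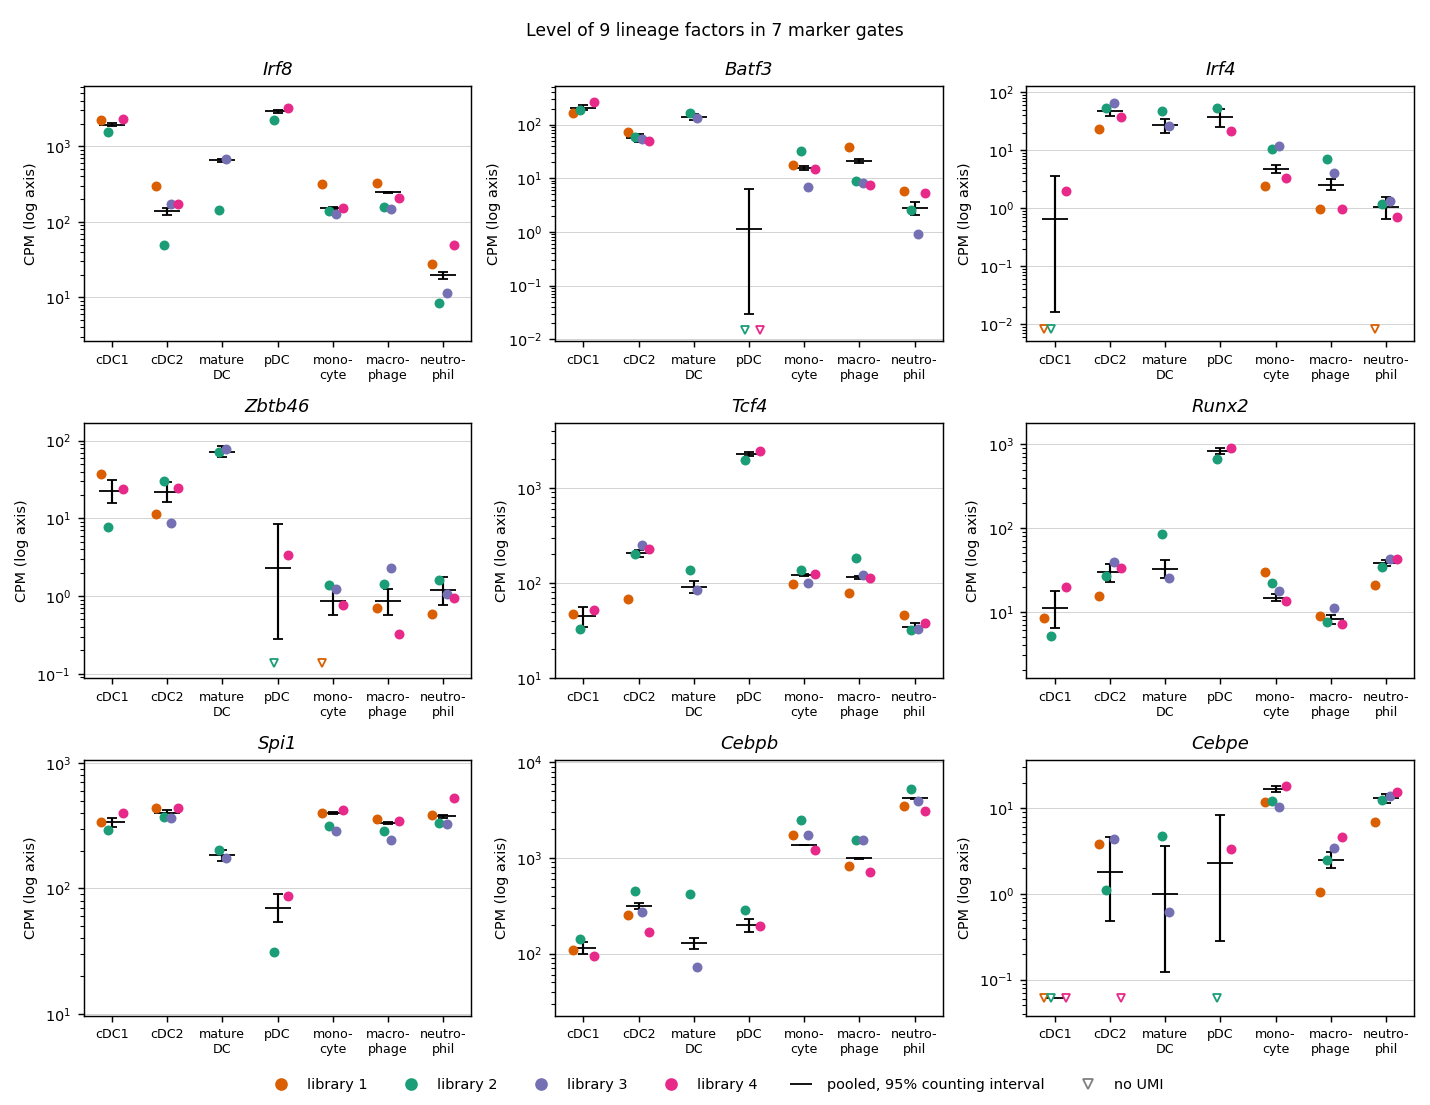
Level of each of the 9 factors in the 7 gates on a logarithmic CPM axis. Black bars are the pooled level with its 95% counting interval, coloured points are the libraries with at least 20 cells of the gate, and open triangles mark a gate or library with no UMI. Irf8, Tcf4 and Runx2 stand highest in pDC, and Cebpb stands highest in neutrophils at 4197 CPM.

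Promoter sequence is shown for the related pair Irf8 and Irf4, whose levels ran in opposite order between cDC1 and cDC2, and for Runx2, a pDC factor. The 200 bases before the RefSeq start on GRCm38.p6 are printed 5′ to 3′, with the motif matches in capitals. Irf8 lies on the plus strand (chr8:120736158-120736357), Irf4 on the plus strand (chr13:30749033-30749232) and Runx2 on the minus strand (chr17:44814628-44814827). Irf8 has a further RefSeq start, whose window of the same length (chr8:120738439-120738638) held 0 matches and is not printed.
Irf8: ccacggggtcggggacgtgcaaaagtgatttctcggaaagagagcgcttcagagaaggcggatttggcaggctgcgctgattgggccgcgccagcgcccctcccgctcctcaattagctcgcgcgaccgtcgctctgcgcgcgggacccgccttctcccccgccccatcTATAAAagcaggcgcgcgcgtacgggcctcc
Irf4: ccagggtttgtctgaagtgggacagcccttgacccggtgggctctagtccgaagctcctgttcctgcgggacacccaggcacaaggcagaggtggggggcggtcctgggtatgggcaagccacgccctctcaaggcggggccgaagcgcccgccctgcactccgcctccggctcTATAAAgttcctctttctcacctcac
Runx2: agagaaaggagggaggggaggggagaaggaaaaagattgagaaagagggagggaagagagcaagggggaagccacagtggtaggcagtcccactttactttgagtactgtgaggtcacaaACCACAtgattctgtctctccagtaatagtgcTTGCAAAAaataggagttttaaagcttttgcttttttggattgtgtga
Irf8 and Irf4 each held the TATA box letters TATAAA, at -31 to -26 in Irf8 and at -26 to -21 in Irf4, counted back from the start. Of 32851 promoters of the same length, 9.96% held TATAAA on either strand. Runx2 held the C/EBP letters TTGCNNAA at -48 to -41, present in 7.47% of promoters, and the RUNX letters TGTGGT at -80 to -75, read on the other strand and present in 11.2%. No match was found in these 3 windows to GAAANNGAA (5.57% of promoters), GGAANNGAA (5.63%), GAGGAAGT (2.06%), CAGNTG (37.9%) or TGANTCA (5.48%), which says only that these letters are not in the window.

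Irf8 (chromosome 8, 120736358 to 120756694, plus strand, GRCm38) separated the dendritic gates from each other. Its level was 2909.5 CPM (2797 to 3025) in pDC, 1942 CPM (1873 to 2012) in cDC1, 652 CPM in mature dendritic cells and 137 CPM (122 to 154) in cDC2. It was 246 CPM in macrophages, 153 CPM in monocytes and 19.7 CPM in neutrophils. Both pDC and cDC1 thus lay above the other 5 myeloid gates. cDC2 lay below macrophages pooled and in libraries 1, 2 and 4, but above them in library 3 (171 against 149 CPM). Pooled, cDC2 lay level with monocytes, from which its interval did not separate. A few cells carried the cDC2 value: 6 of the 207 cells, the ones with 20 or more Irf8 UMIs, held 165 of its 306 Irf8 UMIs (53.9%), at 8.51 to 22.1 per 10000 in 3 libraries. In cDC1, 63 of 98 cells had 20 or more.

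The libraries kept that order between cDC1 and cDC2. In cDC1, Irf8 was 2208 CPM in library 1, 1538 CPM in library 2 and 2266 CPM in library 4. In cDC2 it was 301 CPM in library 1, 49.97 CPM in library 2, 171 CPM in library 3 and 170 CPM in library 4. No library of cDC2 reached any of cDC1, and the pooled ratio of cDC1 over cDC2 was 14.1 (12.6 to 16.0), with 7.34 to 30.8 in the 3 libraries that held both. pDC were 2199 CPM in library 2 and 3179 CPM in library 4, higher than the cDC1 of the same library by 1.43- and 1.40-fold, but the pDC of library 2 lay below the cDC1 of libraries 1 and 4.

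Cell by cell, every one of the 98 cDC1 and 129 pDC held an Irf8 UMI, while 133 of 207 cDC2 (64.3%) and 55 of 228 mature dendritic cells (24.1%) held none. The median cell had 17.8 Irf8 UMIs per 10000 in cDC1, 29.8 in pDC, 3.50 in mature dendritic cells and 0 in cDC2. The mature median was 0 in library 2 (21 cells) and 4.07 in library 3 (188 cells). The pooled Irf8 values of the mature gate are thus mainly those of library 3. The Irf8 level of mature dendritic cells exceeded that of macrophages in 1 of these 2 libraries. Because cDC1 held more UMIs per cell, cells were also thinned to 1000 UMIs. Irf8 was then found in 89.9% of pDC, 74.5% of cDC1 and 34.1% of mature dendritic cells. It was found in 19.96% of macrophages, 13.4% of monocytes and 0.986% of neutrophils. In cDC2 it was found in 7.25% (4.11 to 11.7), which did not separate from 6.17% of T cells (median 4063 UMIs before thinning) or 6.38% of endothelial cells (median 11881). At their own depth cDC2 lay above T cells (95.8 CPM, 88.2 to 104) and endothelial cells (89.5 CPM), so the thinned share and the level gave different pictures of low Irf8 in cDC2. The pooled T cell value leaned on library 1, which held 452 of its 593 Irf8 UMIs. T cells had 192, 39.2 and 30.2 CPM in libraries 1, 3 and 4, against 301, 171 and 170 CPM in cDC2. Thinning left out 629 neutrophils, 288 macrophages, 61 monocytes and 5 mature dendritic cells that were shallower than 1000 UMIs.

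**Figure D2:**
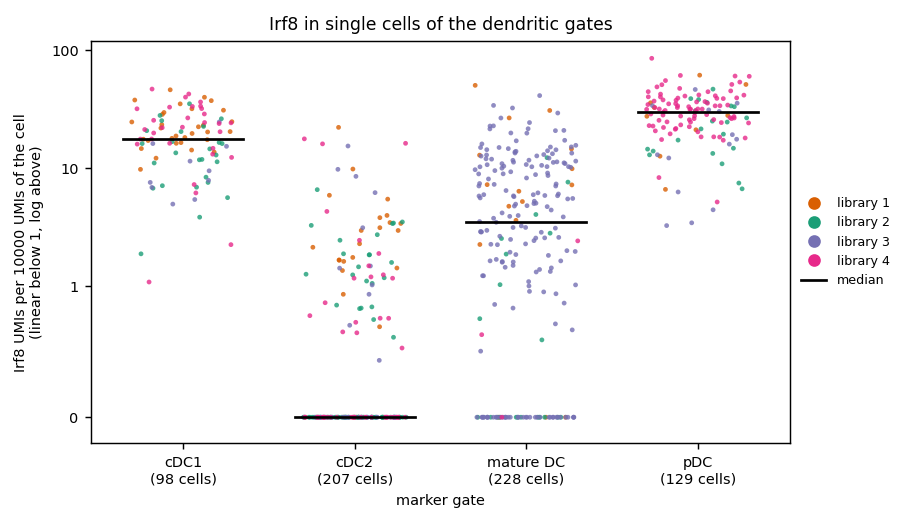
Irf8 UMIs per 10000 in single cells of each gate, on an axis that is linear below 1 and logarithmic above, with a line at the median. No cDC1 or pDC lies at 0, whereas 64.3% of cDC2 do.

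Macrophages exceeded monocytes in Irf8 by 1.61-fold (1.56 to 1.67), and did so in 4 of 4 libraries (1.05- to 1.37-fold). Neutrophils were lower than macrophages by 12.5-fold (11.3 to 13.9). Library 1 held the highest Irf8 level in 3 gates: 301 CPM in cDC2, 312 CPM in monocytes and 327 CPM in macrophages. Outside the myeloid gates, NK cells reached 1297 CPM, 1.497-fold below cDC1 (1.41 to 1.59). Irf8 shares its strand and position with the gene model Gm20388, so their UMIs may not be fully separable.

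Irf4 (chromosome 13, 30749226 to 30766976, plus strand) ran the other way between the conventional subsets. Its level was 48.0 CPM (39.3 to 58.0) in cDC2, 36.9 CPM (25.2 to 52.1) in pDC, 26.7 CPM (20.01 to 34.9) in mature dendritic cells, 4.82 CPM in monocytes, 2.56 CPM in macrophages and 1.04 CPM in neutrophils. In cDC1 a single UMI was counted over 98 cells, 0.645 CPM (0.0163 to 3.59). cDC2, pDC and mature dendritic cells had neighbouring levels whose intervals overlapped, and cDC1 did not separate from neutrophils.

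In cDC2, Irf4 was 22.8 CPM in library 1, 53.3 CPM in library 2, 64.98 CPM in library 3 and 38.0 CPM in library 4, and in 4 of 4 libraries it exceeded macrophages (7.53- to 38.5-fold) and monocytes (4.99- to 11.3-fold). The order of cDC2 over pDC was not stable: pDC had 54.2 CPM in library 2 and 21.8 CPM in library 4, and without library 4 pDC were the higher of these gates. T cells, in which IRF4 serves activation, held 65.4 CPM, 1.36-fold above cDC2 (1.10 to 1.70). Among monocytes, those with high MHC class II genes held 15.0 CPM and those with Chil3 held 3.06 CPM, a ratio of 4.90 (3.22 to 7.43) that was above 1 in 3 of 3 libraries.

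As a share of Irf4 plus Irf8 UMIs, Irf4 took 25.9% (21.7 to 30.4) of cDC2 UMIs and 0.0332% (1 of 3011, 0.000841 to 0.185) of cDC1 UMIs. The cDC2 share depends on the 6 cells with 20 or more Irf8 UMIs, which held 53.9% of the Irf8 UMIs, and with 1 marker more required for each gate the difference from cDC1 was 45.8 in place of 25.9 percentage points. Mature dendritic cells had 3.93%, monocytes 3.06%, pDC 1.25% and macrophages 1.03%. The mature share was 25% (12.7 to 41.2) in library 2 and 3.70% in library 3, which held most of these cells. Among cDC2 the share was 7.06% in library 1, 51.6% in library 2, 27.5% in library 3 and 18.3% in library 4, each above the cDC1 share of the libraries that held cDC1, which was at most 0.0875%. Library 1 was also the lowest of the 4 libraries in monocytes (0.760%) and macrophages (0.299%), as it was in cDC2, and the treatment of that library is not known. Within cDC2, Irf4 was found in 49 of 133 cells without an Irf8 UMI and in 19 of 74 with one, at median depths of 9561 and 11636 UMIs.

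**Figure D3:**
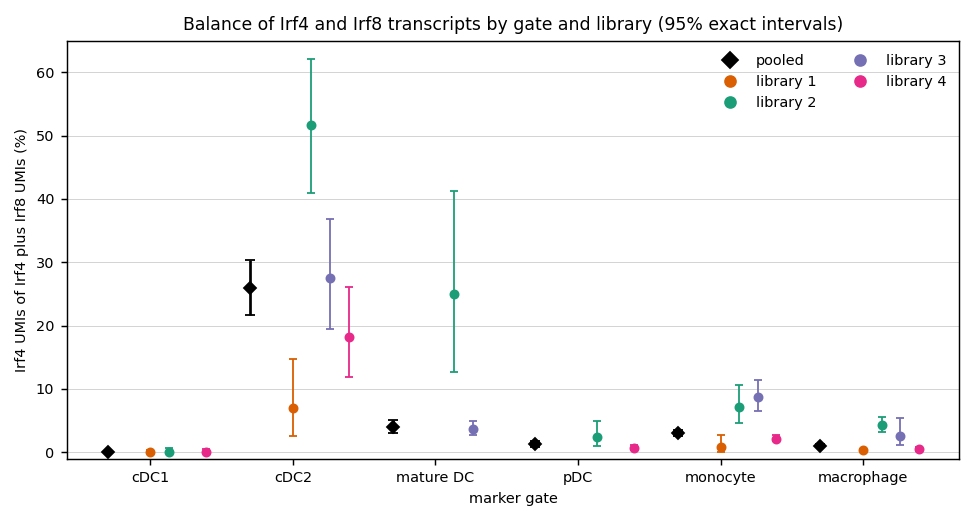
Irf4 as a percent of Irf4 plus Irf8 UMIs in 6 gates, pooled (diamonds) and by library (circles), with exact 95% counting intervals. cDC2 lies at 25.9% pooled, with libraries from 7.06% to 51.6%, and cDC1 lies near 0.

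Batf3 (chromosome 1, 191097847 to 191108945, plus strand), which encodes an AP-1 family factor, was highest in cDC1 at 207 CPM (185 to 231). Mature dendritic cells had 140 CPM (124 to 157), cDC2 57.0 CPM (47.5 to 67.8), macrophages 21.2 CPM, monocytes 15.3 CPM and neutrophils 2.77 CPM. pDC held a single Batf3 UMI in 129 cells, 1.15 CPM (0.0292 to 6.43). Each step from cDC1 to mature dendritic cells, cDC2 and macrophages was wider than the counting intervals, at 1.48-fold (1.26 to 1.75), 2.45-fold (1.98 to 3.05) and 2.68-fold (2.20 to 3.25).

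cDC1 held 168 CPM of Batf3 in library 1, 192 CPM in library 2 and 268 CPM in library 4, all above cDC2, where the libraries ranged from 49.6 to 72.4 CPM. Only library 2 held 20 cells of both cDC1 and the mature gate, and there the ratio was 1.16 (0.765 to 1.78), an interval that spans 1. On the log2 scale the pooled ratio of these gates was 0.57 at their own depth and 0.13 after thinning to 1000 UMIs. Macrophages had 38.0 CPM in library 1 and 7.58 to 9.04 CPM in the others. At their own depth 85.7% of cDC1, 63.6% of mature dendritic cells and 29.5% of cDC2 held a Batf3 UMI. After thinning, it was found in 13.3% of cDC1, 10.8% of mature dendritic cells, 5.80% of cDC2 and 0.570% of T cells, and in 0 of 129 pDC, where a limit of 3 cells allows up to 2.33% of cells with a UMI at that depth.

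Zbtb46 (chromosome 2, 181387762 to 181459426, minus strand), a zinc finger factor of conventional dendritic cells, was highest in the mature gate. It was 72.1 CPM (60.8 to 84.9) there, 22.6 CPM (15.7 to 31.4) in cDC1 and 22.0 CPM (16.3 to 29.1) in cDC2. pDC held 2 UMIs (2.31 CPM), and neutrophils (1.19 CPM), macrophages (0.855 CPM) and monocytes (0.853 CPM) did not separate from one another. cDC1 and cDC2 together exceeded monocytes and macrophages together by 26.0-fold (18.4 to 37.1), and did so in 4 of 4 libraries, by 6.02- to 42.7-fold.

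The order of cDC1 and cDC2 was not resolved, at a ratio of 1.03 (0.646 to 1.62), and cDC1 were higher in 1 of 3 libraries. Mature dendritic cells exceeded cDC2 by 3.28-fold (2.36 to 4.64), and had 71.0 CPM in library 2 and 78.1 CPM in library 3. The size of their lead over cDC1 changed with the libraries: on the log2 scale it was 1.67 with all libraries and 0.97 without library 3, which held most of them. In library 2, the only one with 20 cells of both gates, the ratio was 9.26 (2.62 to 49.9), from 15 and 3 UMIs. Endothelial cells, another known site of Zbtb46, held 13.5 CPM, 15.9-fold above monocytes and macrophages (11.2 to 22.6). A Zbtb46 UMI was held by 39.9% of mature dendritic cells, 25.5% of cDC1 and 17.9% of cDC2 at their own depth. After thinning, 8.97% of mature dendritic cells held one, against 2.04% of cDC1, 2.90% of cDC2, 0.285% of T cells and 0.0509% of monocytes.

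Tcf4, the E protein of pDC, had 2282 CPM (2183 to 2385) in pDC and was found in all 129 of them. It was 205 CPM (187 to 225) in cDC2, 122 CPM in monocytes, 115 CPM in macrophages, 91.2 CPM in mature dendritic cells, 44.5 CPM in cDC1 and 34.9 CPM in neutrophils. pDC exceeded cDC2 by 11.1-fold (10.0 to 12.3), and by 9.63- and 10.6-fold in the 2 libraries with pDC. cDC2 exceeded cDC1 by 4.61-fold (3.58 to 6.03), and in 3 of 3 libraries, although library 1 had only 68.5 CPM in cDC2 against 204 to 253 CPM in the others. Endothelial cells had 802 CPM, 2.85-fold below pDC, and over all kept cells only 4.57% of the 58796 Tcf4 UMIs lay in dendritic gates.

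Runx2 (chromosome 17, 44495987 to 44814797, minus strand), a Runt factor best known from bone, was 833 CPM (773 to 896) in pDC, 666 CPM in library 2 and 910 CPM in library 4 on the same scale. The next gate was the neutrophil gate at 38.3 CPM, 21.7-fold lower (19.6 to 24.1). Mature dendritic cells (32.8 CPM) and cDC2 (29.6 CPM) did not separate from it, and monocytes (14.8 CPM), cDC1 (10.97 CPM) and macrophages (8.15 CPM) were lower. Neutrophils exceeded monocytes by 2.59-fold (2.32 to 2.91) pooled, but in 3 of 4 libraries, with 0.698 in the remaining one. T cells had 90.4 CPM, 9.21-fold below pDC (8.23 to 10.3). Antisense genes Runx2os1, Runx2os2 and Runx2os3 and the gene Supt3 overlap Runx2, and no source used here states whether counting was by strand.

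In pDC thinned to 1000 UMIs, Irf8 and Tcf4 were found together in 106 of 129 cells (82.2%), where the product of their separate shares is 80.9%, and Tcf4 and Runx2 together in 59 of 129 (45.7%), where it is 46.0%. Irf8 and Batf3 were found together in 3.59% of mature dendritic cells, where the product is 3.67%, and Spi1 and Cebpb in 29.5% of neutrophils and 22.9% of monocytes, where it is 29.4% and 22.8%. Irf8 and Batf3 met in 10.2% of cDC1 (product 9.88%), and Irf8 and Irf4 met in 0% of cDC2 (product 0.21%). Of the 207 thinned cDC2, 15 held Irf8 and 6 held Irf4, too few for that 0% to be informative. At their own depth Irf8 and Irf4 met in 19 of 207 cDC2 (9.18%, product 11.7%). After thinning, the joint shares of the first 3 pairs lay close to what the separate shares give. In mature dendritic cells this rested on 8 cells with both Irf8 and Batf3. At their own depth Irf8 and Batf3 met in 52.6% of mature dendritic cells (product 48.3%). There the cells with Irf8 were deeper, at a median of 9157 against 7743 UMIs.

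**Figure D4:**
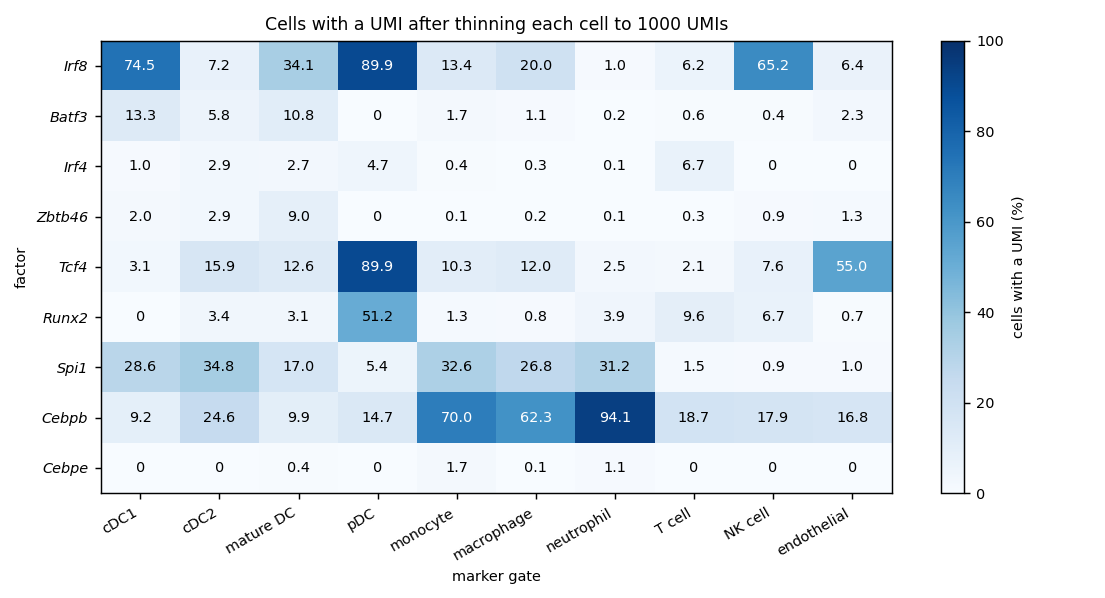
Percent of cells with at least 1 UMI of each factor after thinning to 1000 UMIs, for the 7 gates and for T, NK and endothelial cells as comparison. Irf8 and Tcf4 are both found in 89.9% of pDC, and Cebpb in 94.1% of neutrophils.

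Within the mature gate, the 55 cells without an Irf8 UMI and the 173 with one (median depths 7743 and 9157 UMIs) were set side by side for other factors, as a description. Irf4 was 45.1 CPM (26.7 to 71.3) and 22.1 CPM (15.4 to 30.7), and Batf3 105 CPM (75.9 to 142) and 148 CPM (130 to 168). Tcf4 was 143 CPM (108 to 185) without and 78.2 CPM (65.1 to 93.3) with an Irf8 UMI, and Cebpb 266 CPM (218 to 321) and 93.4 CPM (78.9 to 110). Of these 4 factors, Tcf4 and Cebpb had intervals that did not overlap, both higher in the cells without Irf8. Batf3 was found in 45.5% (32.0 to 59.4) of cells without Irf8 and 69.4% (61.9 to 76.1) with it, in the order of its levels. Irf4 was found in 23.6% and 13.9%, also in the order of its levels. For Cebpb and Tcf4, the shares of cells with a UMI did not follow the levels. Cebpb was found in 38.2% of cells without Irf8 and 43.9% with it, and Tcf4 in 45.5% and 45.1%. The 106 Cebpb UMIs of the cells without Irf8 lay in 21 cells, and the intervals do not cover such spread between cells. The share of cells without Irf8 was 57.1% in library 2 and 20.7% in library 3, so library and Irf8 status moved together and their parts were not tested. Gate markers moved with the split as well. Cells without Irf8 held less Ccl22 (699.6 against 1869 CPM) and Fscn1 (2442 against 3809 CPM). Markers of the cDC2 gate went both ways, with less Ccl17 (95.3 against 316 CPM) and more Mgl2 (60.2 against 14.5 CPM). The Mgl2 UMIs lay in only 3 of the 55 cells and 5 of the 173. Cd209a had 7 UMIs, in 4 cells without Irf8, and 0 in the others. These cells are too few to name a subset.

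Spi1 (chromosome 2, 91082390 to 91115756, plus strand) was the most even factor over the myeloid gates. It was 397 CPM in cDC2, 397 CPM in monocytes, 375 CPM in neutrophils, 337 CPM in cDC1 and 332 CPM in macrophages. Mature dendritic cells had 183 CPM (165 to 203) and pDC 70.3 CPM (53.8 to 90.4), 2.17-fold (1.92 to 2.46) and 5.65-fold (4.36 to 7.45) below cDC2. Pooled, cDC2 and monocytes did not separate, but cDC2 were the higher in 4 of 4 libraries. On the log2 scale their pooled ratio was 0.00255, and leaving out each library gave -0.0191 (without library 1) to 0.298 (without library 4). Monocytes exceeded macrophages by 1.19-fold (1.16 to 1.22) in 4 of 4 libraries. Monocytes exceeded neutrophils by 1.06-fold pooled but in only 1 of 4 libraries. T cells held 19.1 CPM, NK cells 18.0 CPM and endothelial cells 7.80 CPM, so pDC lay above T and NK cells. At their own depth 35.7% of pDC and 7.49% of T cells held a Spi1 UMI, while after thinning the pDC share of 5.43% (2.21 to 10.9) overlapped that of T cells at 1.52% (0.871 to 2.46).

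Cebpb (chromosome 2, 167688915 to 167690418, plus strand), a factor of emergency granulopoiesis and of macrophage activation, was 4197 CPM in neutrophils, 1363 CPM in monocytes and 997 CPM in macrophages. By library it was 3494, 5319, 3956 and 3100 CPM in neutrophils of libraries 1 to 4, and 1739, 2513, 1744 and 1204 CPM in monocytes. Neutrophils were the higher in 4 of 4 libraries, by 2.01- to 2.57-fold, against 3.08-fold (3.04 to 3.11) pooled. Library 4, which had the lowest monocyte level, held most monocytes, and the pooled ratio was 1.62 on the log2 scale with all libraries and 1.18 without library 4. Per cell the mean was 9.06 Cebpb UMIs in neutrophils and 11.6 in monocytes, at median depths of 1816 and 7933.5 UMIs.

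Dendritic gates had lower Cebpb levels: 313 CPM in cDC2, 197 CPM in pDC, 128 CPM in the mature gate and 114 CPM in cDC1. The mature value was set by library 3, with 71.8 CPM against 421 CPM in library 2, and without library 3 it was 363 CPM (305 to 428). T cells had 248 CPM, NK cells 198 CPM and endothelial cells 185 CPM. Fibroblasts lay above the pooled level of each dendritic gate, with 560, 779, 645 and 451 CPM in libraries 1, 2, 3 and 4. So did tumour or epithelial cells, with 740 CPM in library 1 and 691 CPM in library 2. Of all Cebpb UMIs in kept cells, 35.2% lay in gates other than the dendritic and myeloid ones. Monocytes and macrophages held 23.3% and neutrophils 25.0%. At their own depth 97.6% of neutrophils, 96.4% of monocytes and 92.2% of macrophages held a Cebpb UMI. After thinning, it was found in 94.1% of neutrophils, 70.0% of monocytes and 62.3% of macrophages, and in 24.6% of cDC2 (18.9 to 31.1), 14.7% of pDC, 9.87% of mature dendritic cells and 9.18% of cDC1. T cells stood at 18.7% (16.4 to 21.2) and NK cells at 17.9%, so none of the 4 dendritic shares lay above the T cell share beyond its interval. At their own depth and pooled, cDC2 (291 to 338 CPM) did lie above T cells (236 to 261 CPM). By library, cDC2 and T cells held 447 and 231 CPM in library 2, and 275 and 254 CPM in library 3. T cells were the higher in library 1, with 268 CPM against 255 CPM, and in library 4, with 203 CPM against 169 CPM. How much of the Cebpb of dendritic gates was free RNA was not tested. The gene Tmem189 overlaps Cebpb on the other strand.

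Within neutrophils, cells with Retnlg, a gene of recently released neutrophils, held 3985 CPM of Cebpb. Cells without Retnlg held 4276 CPM where Cd274 (PD-L1) was present and 4368 CPM where it was not. The first lay below the last by a ratio of 0.912 (0.898 to 0.927) pooled, but above it in library 3, with 0.911 to 1.02 over the 4 libraries. The share of cells with a Cebpb UMI differed by 0.637 percentage points between Retnlg-positive and Retnlg-negative cells (-0.298 to 1.53), a measure with little room to differ, since 97.6% of neutrophils held one. Within monocytes, Cebpb was 1484 CPM in Chil3-positive, 1333 CPM in Chil3-negative and 860 CPM in MHC class II-high cells.

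Cebpe (chromosome 14, 54710360 to 54712174, minus strand), which directs the formation of secondary granules, was low in every gate, with 1143 UMIs over all kept cells. Its level was 16.9 CPM (15.6 to 18.4) in monocytes, 13.2 CPM (11.6 to 14.9) in neutrophils and 2.504 CPM in macrophages. Dendritic gates had 0 to 4 UMIs each, and cDC1 had 0, where a limit of 3 UMIs allows up to 1.94 CPM and the exact Poisson limit is 2.38 CPM. Neutrophils exceeded macrophages by 5.26-fold (4.09 to 6.83) and monocytes did so by 6.75-fold (5.35 to 8.62), both in 4 of 4 libraries.

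The order of monocytes over neutrophils was set by library 4. Cebpe was 11.97, 12.1, 10.5 and 18.4 CPM in monocytes of libraries 1 to 4, and 6.96, 12.4, 14.1 and 15.3 CPM in neutrophils. Monocytes were thus the higher in libraries 1 and 4 only, and the pooled ratio of 1.28 (1.11 to 1.49) turned below 1 without library 4. Chil3-positive monocytes had 21.5 CPM, Chil3-negative 14.2 CPM and MHC class II-high 4.78 CPM, and the first exceeded the second in 2 of 3 libraries.

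Granule genes were unevenly present in neutrophils. Lcn2 (lipocalin 2) was found in 59.7% of neutrophils at 2975 CPM and Mmp8 (neutrophil collagenase) in 17.4% at 159 CPM. Ltf (lactoferrin) was found in 4.94%, Camp (cathelicidin) in 1.52% and Ngp in 0.995%, while Elane, Mpo and Ctsg had 2, 4 and 1 UMIs in that gate. Leaving Lcn2 and Chil3 out of the list, neutrophils with none of the granule genes had 12.7 CPM of Cebpe (7138 cells), those with 1 had 13.7 CPM (2016 cells), and the 195 with 2 or more had 20.7 CPM (11.01 to 35.4), an interval that overlaps both. Monocytes with 0 granule genes had 14.6 CPM (13.1 to 16.3), those with 1 had 21.5 CPM (18.7 to 24.8) and those with 2 or more had 20.7 CPM (15.2 to 27.6), so the first interval lay below the second, and libraries 1, 3 and 4 had that order while library 2 did not. In monocytes the split rested mainly on Mmp8, found in 31.3% of them, and Prtn3, found in 15.1%. Fcnb was found in 3.38% of monocytes, and Ltf, Camp and Ngp each in at most 0.376%. Of all kept cells, 57.5% of Cebpe UMIs lay in monocytes and macrophages and 23.3% in neutrophils.

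**Figure D5:**
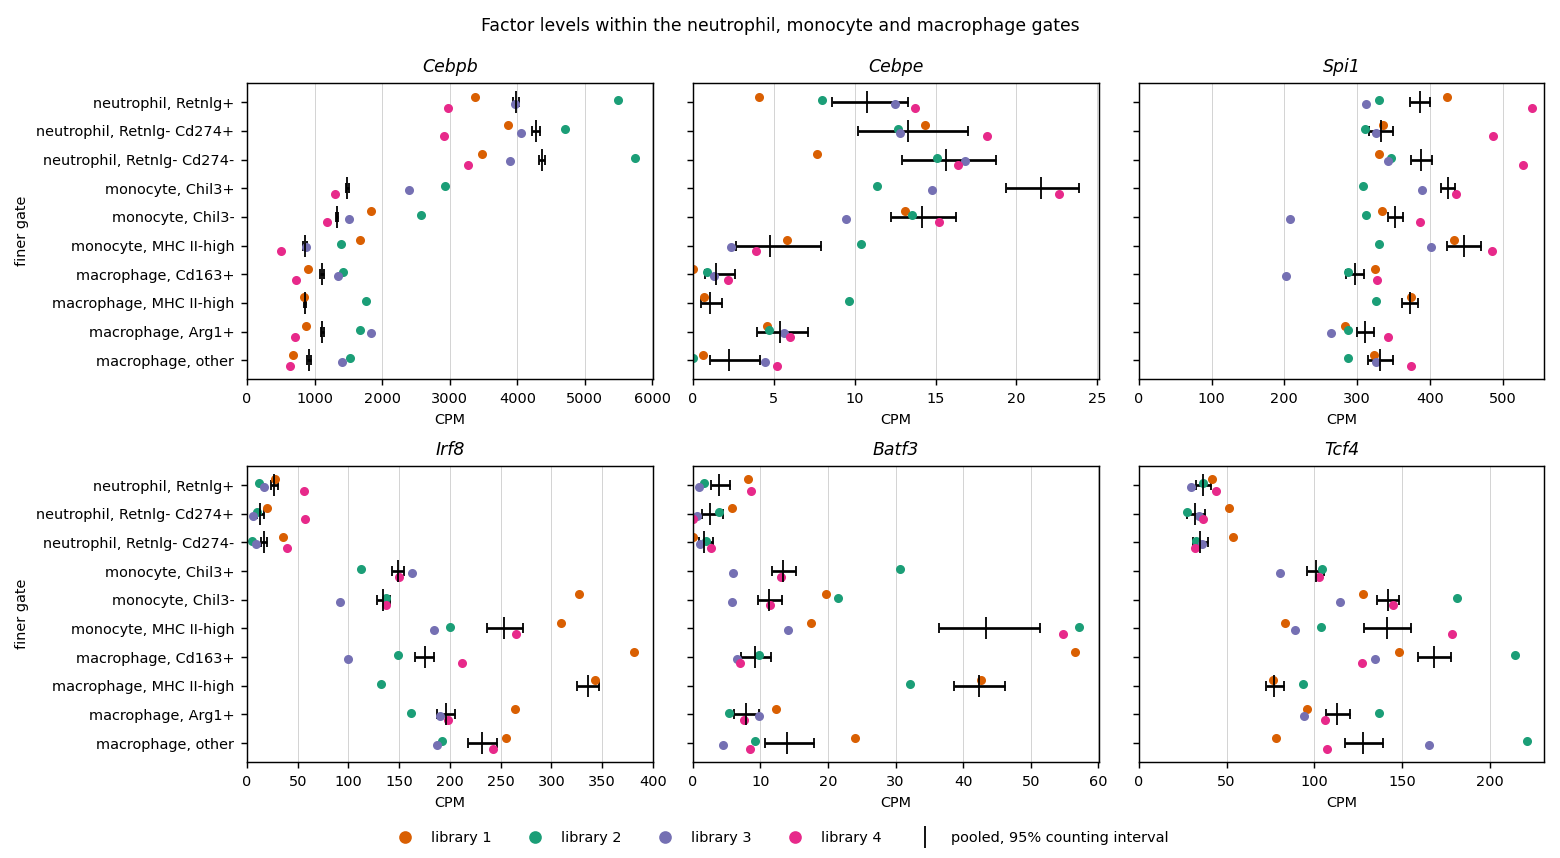
Levels of Cebpb, Cebpe, Spi1, Irf8, Batf3 and Tcf4 in 10 finer gates of monocytes, macrophages and neutrophils. Cebpe is higher in Chil3-positive (21.5 CPM) than in MHC class II-high monocytes (4.78 CPM).

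Across 45 gate-by-library units with at least 20 cells, the gene whose level most followed each factor was taken by Pearson correlation of log2(CPM + 10), as a description, since the units share libraries and depth. Spi1 was followed most closely by Csf2ra (r = 0.94), the GM-CSF receptor alpha chain, and by Pirb (0.90). Cebpe was followed by Gpat3 (0.91), Mefv (0.89) and F10 (0.89), and Cebpb by Rab20 (0.86), Cxcl2 (0.84) and C5ar1 (0.82), of which Cxcl2 is a neutrophil chemokine and C5ar1 the C5a receptor. Tspan33, a tetraspanin, was the nearest gene of both Zbtb46 (0.82) and Batf3 (0.85), and the pair Zbtb46 and Batf3 had r = 0.70. Irf8 was followed by Psme1 (0.83), a proteasome activator subunit, Irf4 by Ramp3 (0.78), Tcf4 by Rilpl1 (0.83) and Runx2 by Slc7a6os (0.81).

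The related factors of the same lineages were taken from 5 lists, to be read beside the shares of all genes with 500 UMIs led by each gate group (64.2%, 22.8% and 13%). Of 6 other interferon regulatory factors, all with 500 UMIs, 3 were led by dendritic gates, 2 by monocytes or macrophages and 1 by neutrophils, with Irf1 at 322 CPM in mature dendritic cells, Irf5 at 201 CPM in cDC1 and Irf7, the interferon amplifier, at 823 CPM in monocytes. Irf1 led in the mature gate only when libraries were pooled: in neither of the 2 libraries with that gate was it the highest. Of 16 further dendritic cell factors, 13 had 500 UMIs and 9 of these were led by dendritic gates, including Id2 (1940 CPM, mature dendritic cells), Bcl11a (747 CPM, pDC) and Stat3 (582 CPM, mature dendritic cells), while Zeb2 was highest in neutrophils at 656 CPM. By library, Id2 led in the mature gate in 1 of 2 libraries and Zeb2 in neutrophils in 2 of 4. Bcl11a and Stat3 led in their gates in 2 of 2. The 9 of 13 (69.2%) lay near the 64.2% of all genes. Of 7 plasmacytoid factors, 6 had 500 UMIs and 3 were led by dendritic gates (50%). Of these 3, only Bcl11a was led by pDC, while Cbfb was led by cDC1 and Etv6 by mature dendritic cells.

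Monocyte and macrophage factors numbered 20, of which 19 had 500 UMIs. Of these, 9 were led by monocytes or macrophages, 7 by neutrophils and 3 by dendritic gates (47.4%, 36.8% and 15.8%). Maf had 464 CPM in monocytes and Klf4 395 CPM in macrophages, although in none of the 4 libraries did either of these 2 lead in that gate. Egr1, Klf2 and Ets2, factors of rapid activation and quiescence, were highest in neutrophils at 1703, 1382 and 1081 CPM. Egr1 and Ets2 led there in 4 of 4 libraries and Klf2 in 3 of 4. Of 13 neutrophil factors, 11 had 500 UMIs and 7 were led by neutrophils (63.6%), with Junb at 3862 CPM, Cebpd at 466 CPM and Runx1 at 172 CPM. Junb and Cebpd led there in 4 of 4 libraries and Runx1 in 2 of 4. The gap between the first and the second gate was a median 0.58 on the log2 scale for the 7 of the 9 factors with 500 UMIs, against 0.26 over all genes and 0.27 to 0.49 for the other lists.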

How the data were processed

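Per the labels, CD45-sorted tumour cells were run on the 10x Genomics 3′ v2 kit. The authors deposited raw UMI counts per gene and barcode, made with Cell Ranger, whose version is given as 2.1.1 in the submitters' processing notes, 3.0.2 in their protocol and 6.1.2 in the matrix header, on mm10. The study states 15603 cells after the filter, whereas 32133 of the 33064 barcodes deposited passed the stated filter of 300 genes and 15% mitochondrial UMIs. Cells were gated on at least 3 markers (2 for NK, B, mast and pericyte gates), each at 1 UMI per 10000 or more (floors of 2 to 50 for markers carried by free RNA). The cDC1 gate also required Xcr1 or Clec9a, so its Xcr1 share was partly set by the gate. The cDC2 gate required H2-Aa plus H2-Ab1 at 20 or more UMIs per 10000. A cell that passed several gates needed a lead of 0.1 in the share of markers. This left 1620 cells ambiguous, and 3785 cells passed no gate. Doublets were kept, with an alternative run without the highest 5% of doublet scores. The factors and lists were chosen with earlier results of these data known, and the gate floors were set after the data were seen. Genes were named by these rules: the 9 factors in every gate, the 5 nearest companions of each (the nearest are printed), and the 3 highest listed factors per gate group (1 listed factor is not reported here). All 55450 gene identifiers matched GENCODE vM21. Promoters came from RefSeq: 6 of the 9 factors had an entry, and those of Spi1, Cebpe and Tcf4 were not used here. Python 3.11.15, numpy 2.4.6, scipy 1.17.1 and scanpy 1.11.5 were used. Tested on simulated data, at least 91% of cells of each gate regained their gate, and 95.6% of ratios lay inside their intervals. The simulated cells were drawn from the mean profile of cells already in each gate, and the counts were Poisson. Misgated cells and spread between cells beyond counting error were therefore not tested. Alternatives changed the filters, gates, depth, doublets and libraries.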

Additional observations from a re-analysis of the deposited data

How the results depend on the processing

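The count of factors led by a dendritic gate stayed between 6 and 7 under every alternative, 6 to 7 leaving out each library. The value of 6 with Leiden clusters came without a cDC1 or cDC2 cluster. Single libraries held 5 to 7 gates of at least 20 cells. Their counts ran from 5 in library 1 to 7 in library 2. The Irf4 share of cDC2 minus that of cDC1, 25.9 percentage points, was 45.8 with 1 marker more required, 20.9 after thinning to 1000 UMIs and 18.2 as the median over libraries, and leaving out each library gave 18.4 (without library 2) to 30.7 (without library 1). The Zbtb46 log2 ratio of 4.70 ranged from 4.31 to 4.98 leaving out each library. The Cebpb difference of 0.637 percentage points between Retnlg-positive and Retnlg-negative neutrophils was 1.76 with Leiden clusters, and 0.476 to 0.855 leaving out each library. The Cebpe log2 ratio of monocytes over neutrophils was 0.36 with all libraries, reversed to -0.18 without library 4, was at most 0.49 (without library 3) leaving out the others, and reversed to -0.14 as the median over libraries. The cause of these shifts was not tested. The Irf4 log2 ratio of cDC2 over pDC, whose interval spans 0, was -0.68 after thinning and -0.44 without library 4. Over the 9 ratios of first to second gate, counted per alternative and with those just given included, 24 values moved beyond the counting interval, 2 reversed and 67 did neither. The 2 reversed values were those of Cebpe. Changes of sign in the Irf4 ratio and in the Spi1 ratio of cDC2 over monocytes, whose intervals span 0, were counted among the others. Added after the data were seen, leaving out library 3 moved the Cebpb level of the mature gate from 128 to 363 CPM. Leiden clusters gave no cluster named cDC1 or cDC2, so no value for the Irf4 share, Zbtb46 and those levels could be had there. No comparison of treatments, paired or not, was possible because the barcode suffixes are not tied to samples. Gates were compared within libraries by their ratios, without a test. Counting error limits Cebpe, Irf4 and Zbtb46 most, with 1143, 1201 and 1194 UMIs over all kept cells.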
